A study of Vernicia fordii and Jatropha curcas with 4 samples.

Results

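Transcripts of nonspecific lipid transfer proteins were followed in the seeds of physic nut (Jatropha curcas) and tung tree (Vernicia fordii), both oil crops of the spurge family, while the seeds filled. Members were all assembled contigs whose deposited Arabidopsis locus code was among 10 listed loci, 7 of type 1 (LTP1 to LTP6 and LTP12) and 3 of type 2. The rule found 14 contigs among 94993, namely 6 of 45411 in Jatropha and 8 of 49582 in Vernicia. Each species had contigs for 4 of the 10 loci, and 3 loci (AT5G59320, AT3G18280 and AT1G48750) had contigs in both. The names LTP1 to LTP12 are those of the Arabidopsis loci, and the deposited tables hold locus codes without names. A contig is therefore called here by the Arabidopsis locus it was matched to, which does not show that it is that locus's counterpart in the tree.

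Lipid transfer proteins are small secreted plant proteins whose fold, held by disulfide bridges, encloses a hydrophobic cavity. Fatty acids, acyl-CoA and phospholipids bind in that cavity in vitro, and the proteins move lipids between membranes in the test tube. In plants they lie mostly in the cell wall and are linked to the deposition of cutin, wax and suberin, to defence and to signalling. Type 2 proteins are shorter than type 1 and have a differently shaped cavity. In seeds, members of the family are known as abundant proteins and, in several species, as food allergens.

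RNA sequencing covered 4 libraries, 1 per species and stage, each from the mixed RNA of 3 seeds of trees 3 years old, with no treatment and no replicate. Seeds were taken at an early and at a fast stage of oil accumulation, which was 29 and 37 days from pollination for Jatropha, and 90 and 135 days for Vernicia. One label field calls the material endosperm and another seeds. The value columns carry the numbers 7 and 8, which no label ties to a stage, so the libraries are called library 7 and library 8 and no difference has a direction in time. With 1 library per group no test was possible, no value below has an error, and differences are described by size.

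Values are RPKM, a read count scaled by contig length and by the size of the library. A difference is the log2 of library 8 over library 7 after 1 RPKM was added to each. The number of reads behind each value is not known, and neither is its counting error. Contigs that reached 1 RPKM in a library of their species were compared, and their median difference was -0.64 over 36666 contigs in Jatropha and -0.39 over 35689 in Vernicia. Among contigs that reached 10 RPKM, the median was -1.20 in Jatropha and -0.47 in Vernicia. For some Jatropha members the difference is therefore also given relative to the median over contigs that reached 1 RPKM, called the median contig. Differences of the other members are not set against it. In Jatropha library 7 a single contig without a locus code held 25.1% of all RPKM, and the largest single shares in the other libraries were 12.1%, 2.61% and 3.76%. In bulk seed RNA, fewer cells of a type and less RNA per cell cannot be told apart.

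The type 2 loci held most of the family's transcript level in Jatropha, and they differed sharply from each other between the libraries. Contig comp13516_c0, matched to the type 2 locus AT1G48750, was the most abundant member, with 1198.87 RPKM in library 7 and 58.55 in library 8. It ranked at place 69 of 45411 contigs in library 7 and at place 1048 in library 8. Its level in library 7 was 20.5 times that in library 8, which gives a log2 difference of -4.33, or -3.69 relative to the median contig. Of the contigs compared, 1.02% had a more negative difference. A second contig of AT1G48750 was low in both libraries, at 3.59 and 1.22 RPKM.

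The other type 2 locus of Jatropha, AT3G18280, was represented by a pair of contigs that did not move together. Contig comp27821_c0 had 399.12 RPKM in library 7 and 389.14 in library 8, nearly the same level, with a log2 difference of -0.04. Relative to the median contig this was 0.61, and its place among all contigs went from 267 in library 7 to 141 in library 8. Contig comp28870_c0 had 208.85 RPKM in library 7 and 6.14 in library 8. Its library 7 level was 34.0 times that in library 8, and its log2 difference was -4.88, while 0.614% of contigs had a more negative one. Summed over both contigs the locus had 607.97 and 395.28 RPKM, a log2 difference of -0.62. That is 0.02 from the median contig, and the sum difference turned to 0.20 after trimmed mean scaling, which divides library 8 by its typical ratio to library 7. The locus sum thus joins a contig of nearly equal level in both libraries with a contig that was low in library 8.

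Type 1 transcripts of Jatropha were matched to LTP3 and LTP4, neighbouring and closely related Arabidopsis genes that respond to abscisic acid in that species. Contig comp29104_c0, matched to AT5G59310 (LTP4), had 249.15 RPKM in library 7 and 0.09 in library 8. It took place 453 of 45411 contigs in library 7 and place 43018 in library 8. The log2 difference was -7.84, the most negative among the members, and 0.0436% of contigs had a more negative one. Because values were rounded to 2 decimals, the ratio of library 7 to library 8 lies between 2623 and 2931, apart from a counting error that is unknown and large for so low a value. Contig comp22422_c0, matched to AT5G59320 (LTP3), stood at 94.15 RPKM in library 7 and at 30.76 in library 8, a ratio of 3.06. Its log2 difference of -1.58 became -0.78 after trimmed mean scaling, which is under 2-fold. The LTP4 match was thus nearly absent from library 8, while the LTP3 match stayed among the top contigs, above 95.7% of them. Assignment of a contig to LTP3 or LTP4 is uncertain, since no source used here describes the search that gave the codes.

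**Figure D1:**
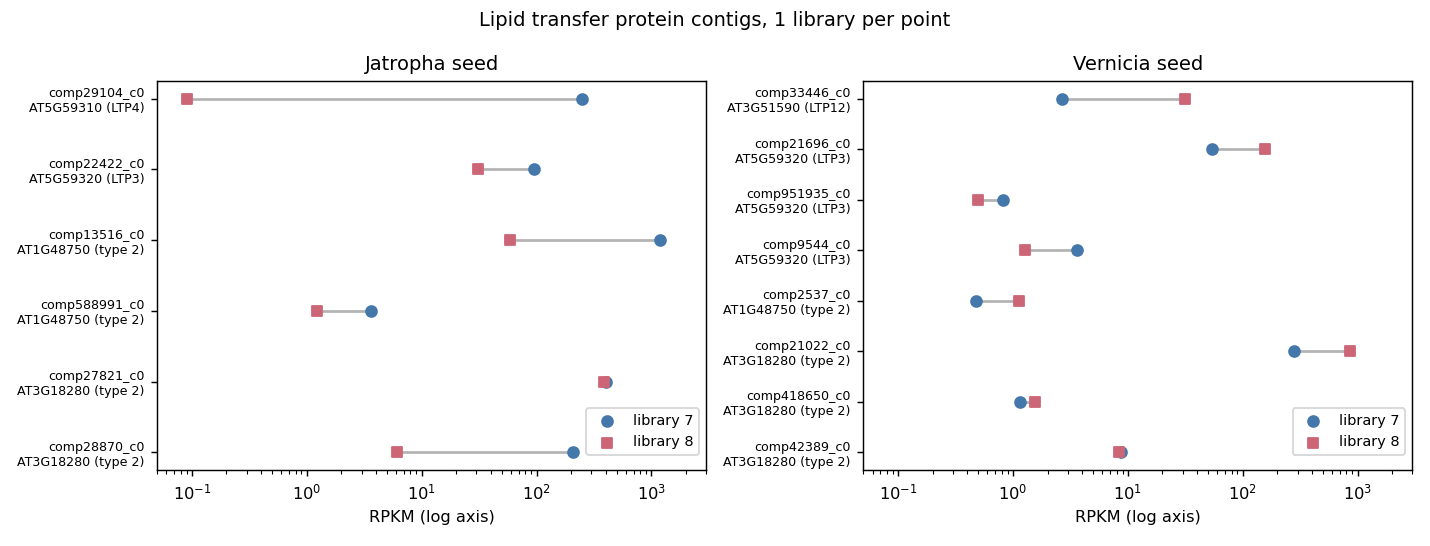
RPKM of each lipid transfer protein contig (log axis) in library 7 (circles) and library 8 (squares) of Jatropha (6 contigs) and Vernicia (8 contigs), with the matched Arabidopsis locus under the contig's name and 1 library per point. In Jatropha the 6 circles lie to the right of the squares, by very little for comp27821_c0 (399.12 and 389.14 RPKM), whereas in Vernicia comp21022_c0, comp21696_c0 and comp33446_c0 have the square well to the right.

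The makeup of the family differed between the Jatropha libraries. The 6 contigs summed to 2153.73 RPKM in library 7 and to 485.9 in library 8, a ratio of 4.43. The log2 difference of the sum was -2.15, or -1.32 after trimmed mean scaling. In library 7, AT1G48750 made up 55.8% of the sum, AT3G18280 28.2%, LTP4 11.6% and LTP3 4.37%. In library 8, AT3G18280 made up 81.4%, AT1G48750 12.3%, LTP3 6.33% and LTP4 0.0185%. The leading locus was therefore AT1G48750 in library 7 and AT3G18280 in library 8. Type 1 loci together had 343.3 and 30.85 RPKM, and type 2 loci 1810.43 and 455.05 RPKM. The family held 0.195% of all RPKM in library 7 and 0.0594% in library 8.

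In Vernicia the same locus led in both libraries, and its main contig was higher in library 8. Contig comp21022_c0, matched to the type 2 locus AT3G18280, had 281.76 RPKM in library 7 and 861.14 in library 8, 3.06 times as much in library 8. It went from place 256 to place 68 of 49582 contigs, with a log2 difference of 1.61, and 95.8% of contigs had a lower difference. The other contigs of AT3G18280 were low, between 1.14 and 8.7 RPKM, and neither differed by 2-fold. Over its 3 contigs the locus summed to 291.6 and 871.03 RPKM, and among 13333 loci with contigs it stood at place 243 in library 7 and 54 in library 8.

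The type 1 members of Vernicia followed at a lower level. Contig comp21696_c0, matched to AT5G59320 (LTP3), stood at 54.42 RPKM in library 7 and at 157.46 in library 8, which is 2.89 times as much and a log2 difference of 1.52. The remaining contigs of that locus were at 0.82 and 3.6 RPKM in library 7 and at 0.5 and 1.28 in library 8, lower in library 8 although the leading contig was higher. Contig comp33446_c0, the sole match to AT3G51590 (LTP12), stood at 2.69 RPKM in library 7 and at 31.73 in library 8, with a log2 difference of 3.15. In Arabidopsis LTP12 is known from the tapetum, the nurse tissue of pollen. Its contig had the largest excess in library 8 among the 14 members, and 99.2% of Vernicia contigs had a lower difference. Contig comp2537_c0, the sole match to AT1G48750, was near the lower end at 0.48 and 1.12 RPKM. The locus that led the Jatropha family in library 7 thus had almost no transcript matched to it in Vernicia.

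The Vernicia family summed to 353.61 RPKM in library 7 and to 1063.12 in library 8, which is 3.01 times as much. The log2 difference of the sum was 1.59, or 1.98 after trimmed mean scaling. Its makeup hardly differed between the libraries. AT3G18280 made up 82.5% and 81.9% of the sum, LTP3 16.6% and 15.0%, LTP12 0.761% and 2.98%, and AT1G48750 0.136% and 0.105%. Type 2 loci held 82.6% in library 7 and 82.0% in library 8, which rests on comp21022_c0, since without it they held 14.4% and 5.45%. In Jatropha the type 2 share was 84.1% and 93.7%.

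**Figure D2:**
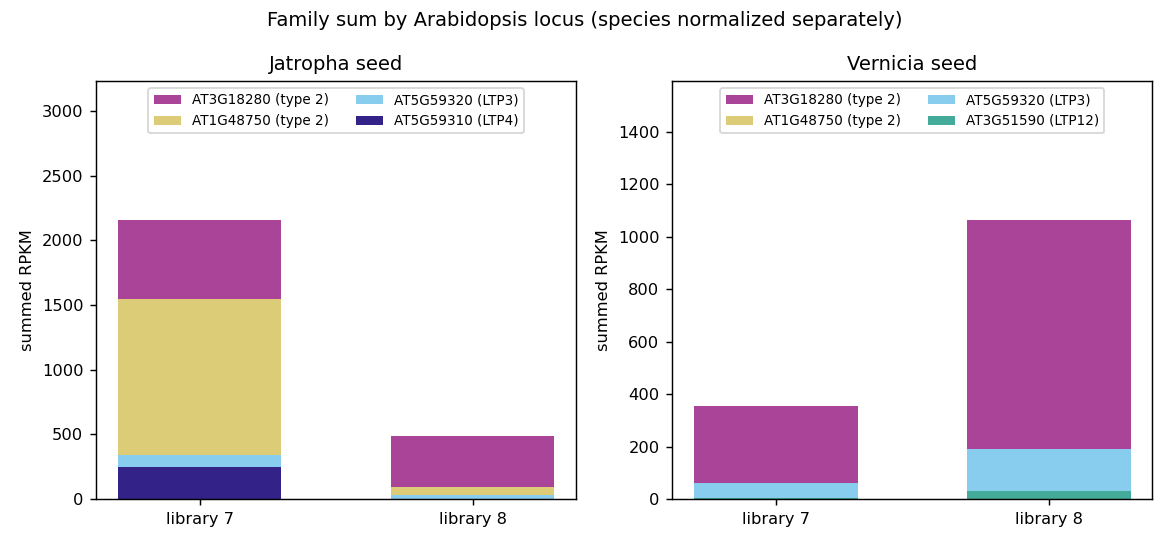
Summed RPKM of the lipid transfer protein contigs in libraries 7 and 8 of each species, stacked by matched Arabidopsis locus, with an axis from 0 and its own scale for each species because the tables were normalized separately. The Jatropha bar is 2153.73 RPKM high in library 7, mostly AT1G48750, and 485.9 in library 8, mostly AT3G18280, and AT3G18280 fills over 80% of both Vernicia bars, which stand at 353.61 and 1063.12.

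Loci without a contig were LTP1 (AT2G38540), LTP2 (AT2G38530), LTP5 (AT3G51600), LTP6 (AT3G08770) and the type 2 locus AT1G73780 in both species, LTP12 in Jatropha and LTP4 in Vernicia. In Arabidopsis, LTP1 is a cell wall protein of the epidermis, LTP2 is tied to the cuticle of the seedling stem, and LTP5 acts in pollen tube growth. A locus without a contig had no contig given its code, and reads of a related transcript may stand under the code of another locus.

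In Jatropha, 5 of the 6 contigs were at least 2-fold lower in library 8, where 37.0% of all contigs compared and 43.2% of those with a locus code were. None had a 2-fold excess there, against 17.0% of all contigs and 8.38% of those with a code. The median difference over the 6 contigs was -2.96, beside -0.64 over all contigs compared and -0.84 over those with a locus code. Among contigs that reached 10 RPKM in either library, the median was -4.33 over 5 members and -1.20 over all contigs. Of these members, comp29104_c0 and comp28870_c0 reached 10 RPKM through library 7 alone, so their deficits are favoured by that filter. After trimmed mean scaling 3 of 6 passed 2-fold downwards, beside 22.9% of all contigs, and none upwards, beside 26.3%, with a median of -2.15 beside -0.08. The most negative members were comp29104_c0, comp28870_c0 and comp13516_c0, for which 0.0436%, 0.614% and 1.02% of contigs had a more negative difference. For comp22422_c0, comp588991_c0 and comp27821_c0 these shares were 18.5%, 35.2% and 66.6%. Contig comp29104_c0 reached 1 RPKM through library 7 alone, so its deficit is favoured by the filter of 1 RPKM as well.

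In Vernicia, 7 of the 8 contigs reached 1 RPKM in either library, comp2537_c0 through library 8 alone. A 2-fold excess in library 8 was found for 3 of them, beside 9.77% of all contigs compared and 8.13% of those with a locus code. A 2-fold deficit was found for 1, beside 16.8% and 19.4%. The median difference over all 8 contigs was 0.39, beside -0.39 over all contigs compared. After trimmed mean scaling 3 were higher, beside 14.5%, and none was lower, beside 10.6%. The 3 higher contigs belong to AT3G18280, LTP3 and LTP12.

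**Figure D3:**
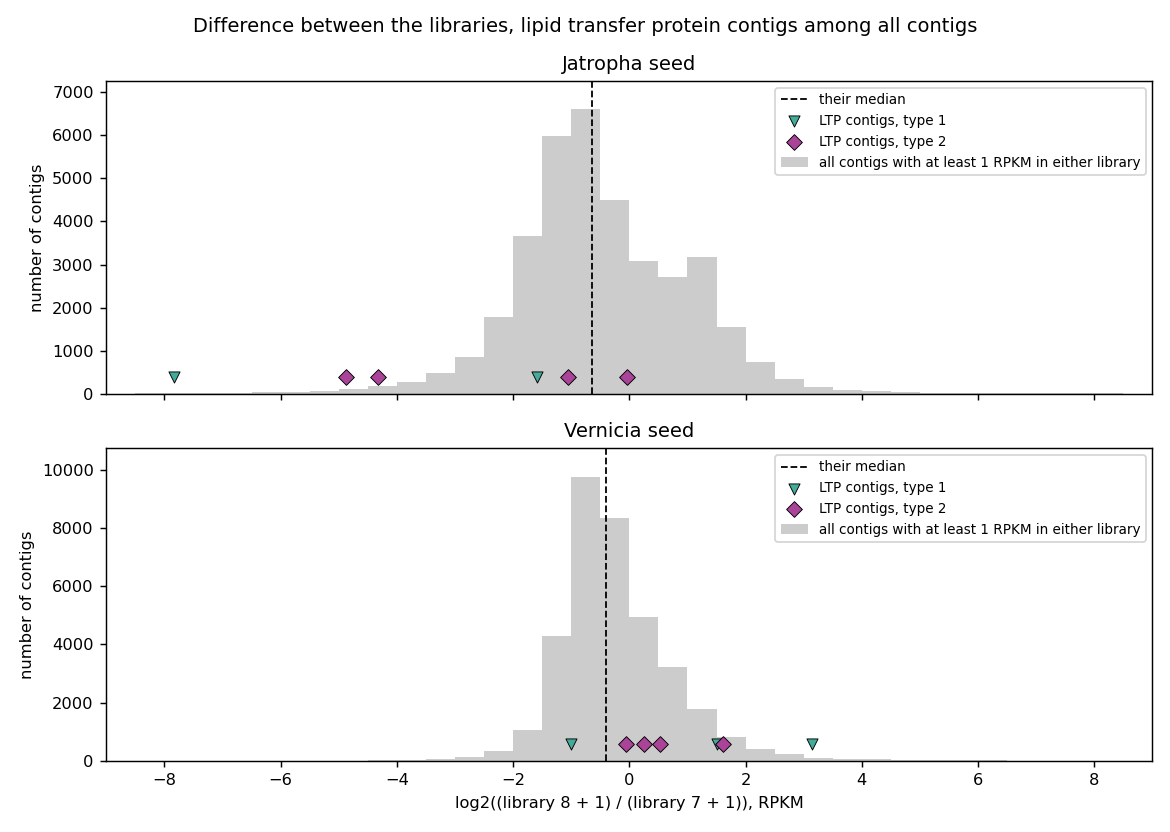
Number of contigs (bars) by log2 difference between library 8 and library 7 in bins of 0.5, for contigs that reached 1 RPKM in a library of the species, with their median (dashed line) and the lipid transfer protein contigs of type 1 (triangles) and type 2 (diamonds) placed at their own difference. The Jatropha members lie between -7.84 and -0.04 with 3 beyond -4, and the Vernicia members between -1.01 and 3.15 with 3 above 1.5.

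Set side by side, the loci found in both species had sums that were lower in library 8 for Jatropha and higher for Vernicia. The log2 difference of AT3G18280 was -0.62 in Jatropha and 1.58 in Vernicia, that of LTP3 was -1.58 and 1.42, and that of AT1G48750 was -4.31 and 0.52. In Vernicia AT1G48750 was 1 contig at 0.48 and 1.12 RPKM, which reached 1 RPKM through library 8 alone. Its sign there is therefore favoured by the filter. The pattern of opposite signs was found at 17.3% of 11054 loci with at least 1 RPKM in both species. At the 2-fold threshold LTP3 alone among the 3 loci had it, beside 2.82% of loci. After trimmed mean scaling 2 of the 3 loci kept opposite signs, beside 23.0% of loci, AT3G18280 then being higher in library 8 of both species, and none had 2-fold opposite differences, beside 2.87% of loci. No label says that a library number marks a like stage in both trees, so these are values side by side and not a species difference at a matched stage.

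Related loci were read from lists of codes written from general knowledge of Arabidopsis. Of 8 further type 1 loci, 3 had contigs in Jatropha, with a sum of 65.05 RPKM in library 7 and 15.33 in library 8, and 2 had contigs in Vernicia, with 4.75 and 2.61 RPKM. Loci listed for membrane-anchored lipid transfer proteins, which carry a glycosylphosphatidylinositol anchor, summed to 219.54 and 159.62 RPKM in Jatropha and to 625.31 and 338.48 in Vernicia. The Jatropha difference of the sum turned with the scaling, from -0.46 as deposited to 0.36 after trimmed mean scaling, and its members differed in direction. There AT1G27950 had 59.75 RPKM in library 7 and 129.74 in library 8, while AT1G55260 had 153.96 and 10.37. In Vernicia AT1G27950 was lower in library 8, at 598.06 and 326.0 RPKM, unlike the leading members of the family, which were higher there. For this list 4 contigs were compared in each species, of which 2 passed 2-fold upwards and 1 downwards in Jatropha, and none upwards and 1 downwards in Vernicia. Over all contigs compared, 17.0% passed upwards and 37.0% downwards in Jatropha, and 9.77% and 16.8% in Vernicia, so the downward counts are near these shares.

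Loci listed for DIR1 and its close relative, which are type 2-like proteins of systemic defence signalling in Arabidopsis, differed most in Jatropha. AT5G48485 had 194.72 RPKM in library 7 and 1.08 in library 8 there, and AT5G48490 had 50.35 and 3.96. All 3 contigs compared for this list were at least 2-fold lower, beside 37.0% of all Jatropha contigs compared. The contigs of AT5G48485 together had 1.08 RPKM in library 8, so at least 1 of them was compared through library 7 alone. Its lower value in library 8 is therefore favoured by the filter. In Vernicia AT5G48485 was of similar level in both libraries, at 441.71 and 490.4 RPKM, though 2 of its 3 contigs had a 2-fold excess in library 8, beside 9.77% of all contigs. Loci listed for transporters that export cutin and wax lipids summed to 43.14 and 8.28 RPKM in Jatropha and to 33.34 and 13.11 in Vernicia, lower in library 8 in both species. In Vernicia 1 of the 2 contigs compared for them was at least 2-fold lower, beside 16.8% of all contigs. The other was at least 2-fold higher, beside 9.77%. Their median was 0.0013, so the lower sum in Vernicia rests on the more abundant contig. In Jatropha 7 of the 10 contigs compared for these loci were at least 2-fold lower and 1 higher, beside 37.0% and 17.0% of all contigs. Of the 10, 5 were at 0 in library 8 and so were compared through library 7 alone, which favours a lower value.

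Marker loci of tissues that a seed sample can hold moved as well, and their part in the family's differences was not tested. For seed storage and oil bodies, 5 of 5 listed loci had contigs in Jatropha and 4 of 5 in Vernicia, and their sums were 1459.09 and 154880.61 RPKM in Jatropha and 411.31 and 75418.73 in Vernicia. The storage and oil body sum was therefore far higher in library 8 of both species, while the lipid transfer protein family sum was lower there in Jatropha and higher in Vernicia. Of these loci, 4 exceeded 50 RPKM in Jatropha (AT5G44120, AT4G28520, AT4G25140 and AT5G40420) and 4 in Vernicia (AT5G44120, AT1G03880, AT4G25140 and AT5G40420). AT5G44120 alone had 133634.27 RPKM of the sum in Jatropha library 8, and AT1G03880 alone had 55441.1 in Vernicia library 8. In Jatropha AT4G28520 was at 44.17 RPKM in library 7 and at 57.71 in library 8. AT1G03880 was lower in library 8 of Jatropha, at 17.96 and 11.51 RPKM.

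For the seed coat, 4 of 5 listed loci had contigs in Jatropha and 5 of 5 in Vernicia. In Jatropha their sum was 114.13 RPKM in library 7 and 6.27 in library 8. In Vernicia it was 339.96 and 152.0 RPKM. The seed coat sum was lower in library 8 of both species, as the family sum was in Jatropha and was not in Vernicia. AT5G23260 held most of it except in Jatropha library 8, where AT1G61720 did. AT5G23260 was at 91.5 and 1.76 RPKM in Jatropha and at 301.2 and 94.21 in Vernicia. AT1G61720 was at 18.38 and 3.52 RPKM in Jatropha, and was higher in library 8 in Vernicia, at 27.86 and 53.75 RPKM. Of the contigs on this list, 2 in Jatropha and 1 in Vernicia were at 0 in library 8, and AT3G59030 had no contig in Jatropha.

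Epidermis loci, with contigs for 4 of 4 in Jatropha and 3 of 4 in Vernicia, summed to 22.17 and 22.11 RPKM in Jatropha and to 35.97 and 12.25 in Vernicia. Green tissue loci, with contigs for 1 of 3 in Jatropha and 2 of 3 in Vernicia, summed to 23.74 and 109.97 RPKM and to 72.4 and 193.88. Nearly all of the green tissue sum came from AT1G67090, with 192.14 RPKM in Vernicia library 8. Its 2 contigs in Jatropha differed in direction, with a median difference of 0.02. Of them, 1 passed 2-fold upwards and 1 downwards, beside 17.0% and 37.0% of all contigs compared, and 1 was at 0 in library 8. The nearly equal epidermis sums in Jatropha joined loci of opposite direction. There AT2G42840 had 16.75 RPKM in library 7 and 2.74 in library 8, while AT2G26250 had 2.76 and 11.26, AT4G21750 1.29 and 4.86, and AT1G68530 1.37 and 3.25. After trimmed mean scaling the Jatropha epidermis sum differed by 0.79 on the log2 scale. The lower epidermis sum in Vernicia library 8 came mostly from AT2G26250, at 28.57 RPKM in library 7 and 3.29 in library 8. AT4G21750 was low at 1.33 and 0.38 RPKM, and AT2G42840 was higher in library 8, at 6.07 and 8.58.

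**Figure D4:**
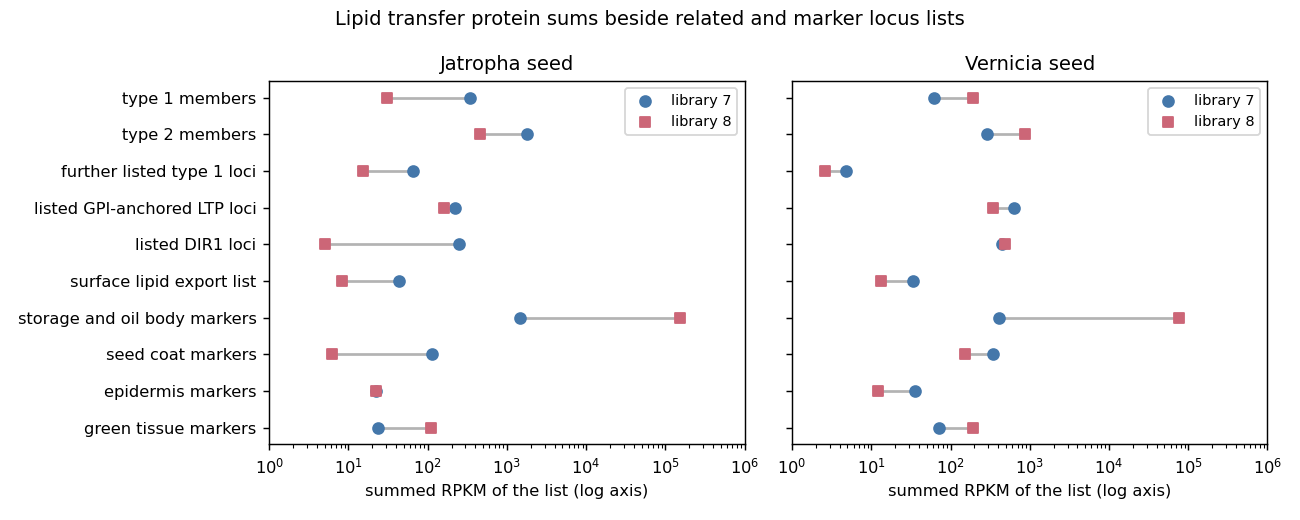
Summed RPKM (log axis) in library 7 (circles) and library 8 (squares) for the type 1 and type 2 lipid transfer protein members and for lists of related and marker loci, in each species. In Jatropha the type 1 and type 2 members, the DIR1 list and the seed coat list are all lower in library 8, and in Vernicia the type 1 and type 2 members are higher in library 8, at 190.97 and 872.15 RPKM, while the seed coat list is lower, at 152.0 RPKM.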

How the data were processed

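Expression was measured by RNA sequencing of 4 seed libraries, and the authors deposited, for each tree, RPKM values of its assembled contigs with 2 decimals; the unit is read from the table names. A TAIR10 locus code stands beside some of the contigs. CTAB extraction, selection of polyadenylated RNA and directional library preparation are recorded in the labels' protocols. The submitters' processing notes list Bowtie and edgeR, with no version or role. How contigs were assembled, matched to codes, counted or filtered was not given in the sources used here. Since RPKM is relative to the library, very abundant contigs depress the rest, and near-identical copies may have shared reads.

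A contig was a member where its code equalled a listed locus, and RPKM was summed per locus. The members, the lists of related and marker loci and the thresholds were chosen with earlier results of these data known. Member contigs that reached 10 RPKM, or were alone at their locus, are named, as are other listed loci whose sum reached 50 RPKM. Adding 1 RPKM before the log2 understates the differences of low contigs, and contigs below 1 RPKM in both libraries were left out of the 2-fold counts. No test was run, because each tree has 1 library per stage. Tried in turn were pseudocounts of 0.1 and 5 RPKM, filters of 0 and 10 RPKM, a 4-fold limit, scaling by the median ratio, by the trimmed mean (30% off each end) or to equal totals, the top contig of each locus alone, and the family less its top contig. The code was tested on simulated data. Python 3.11.15, pandas 2.3.3, NumPy 2.4.6 and Matplotlib 3.10.9 were used.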

Additional observations from a re-analysis of the deposited data

Results flagged for a closer look

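As deposited, differences between the libraries had opposite signs in the 2 species at each of the 3 loci found in both and for the family, type 1 and type 2 sums. The Vernicia log2 difference exceeded that of Jatropha by 3.004 at AT5G59320 (LTP3), by 2.20 at AT3G18280 and by 4.83 at AT1G48750, where the Vernicia contig had 0.48 and 1.12 RPKM. The excess was 3.73 for the family sum, 5.05 for the type 1 sum and 3.56 for the type 2 sum. After trimmed mean scaling AT3G18280 in Jatropha turned from -0.62 to 0.20, so that 2 of the 3 loci kept opposite signs. None of these differences was tested, as each rests on 1 library per number and species. Setting them side by side takes library 7, and likewise library 8, as comparable between the trees, for which the labels give no basis.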

How the results depend on the processing

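Of 62 alternative values for log2 differences of locus and family sums, 57 kept their direction and their side of the 2-fold threshold. Some of the 57 could not differ, since at a locus with 1 contig the top contig alone repeats the main value. That holds for LTP3 and LTP4 in Jatropha and for LTP12 and AT1G48750 in Vernicia. The sign turned for AT3G18280 in Jatropha, from -0.62 to 0.21 with median-ratio and 0.20 with trimmed mean scaling. LTP3 (AT5G59320) in Jatropha went from -1.58 to -0.77 and -0.78 under the same scalings, and AT1G48750 in Vernicia from 0.52 to 1.07 with a pseudocount of 0.1 RPKM. What these scalings take out is the table's common offset, of -0.83 and -0.82 on the log2 scale in Jatropha and of -0.40 and -0.39 in Vernicia; the cause of the offset was not tested. The 5 lower contigs of Jatropha became 3 under either scaling and 3 at 4-fold. In Vernicia the 3 higher contigs became 1 at 4-fold, and the 1 lower contig became 0 under either scaling, at 4-fold, with 5 RPKM added and with a filter of 10 RPKM. Without comp21022_c0 the type 2 share of the Vernicia family was 14.4% in library 7 and 5.45% in library 8.

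Over all contigs, 6235 were higher and 13583 lower in Jatropha library 8. These became 1207 and 5523 with 5 RPKM added, 977 and 5631 with a filter of 10 RPKM, 1504 and 3905 at 4-fold, 9669 and 8373 with median-ratio and 9628 and 8407 with trimmed mean scaling. In Vernicia 3487 were higher and 5992 lower. These became 5492 and 11041 with 0.1 RPKM added, 1243 and 1427 with 5 RPKM added, 1251 and 2051 with a filter of 10 RPKM, 924 and 587 at 4-fold, 5232 and 3719 with median-ratio scaling and 5188 and 3769 with trimmed mean scaling. No paired analysis was possible because no stage has a replicate and nothing was tested. Depth limits low contigs most, by an amount that cannot be given without read totals.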
